A study of Mus musculus with 4 samples.

Results

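The 10 genes described here are Fos, Fosb, Fosl1 and Fosl2 of the Fos family, Jun, Junb and Jund of the Jun family, and Egr1, Atf3 and Dusp1. They were chosen by symbol, and all 10 have a row among the 18383 genes of the deposited count table. RNA was sequenced from primary epithelial cells of renal tubules, taken from the kidney cortex of C57BL/6 mice aged 8 weeks, in 2 libraries for each of 2 genotypes. KMS cells came from SETD2fl/fl MYCfl/fl KspCre/+ mice and KM cells from MYCfl/fl KspCre/+ mice, so the MYC alleles and the Cre transgene are common to both genotypes and the floxed SETD2 alleles distinguish them. The series title names the contrast as MYC+; SETD2-/- against MYC+ cells, and no library from mice without the MYC alleles was analysed here. KspCre drives Cre recombinase from the promoter of kidney-specific cadherin, which is active in tubular epithelium. The series design text describes another contrast, in which both groups carry floxed SETD2 alleles and MYC separates them, with more replicates. The labels of the samples were followed here, and what every difference between KMS and KM refers to rests on them. The labels do not say how many animals gave each library.

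AP-1 is a transcription factor made of pairs of basic leucine zipper proteins. Jun proteins pair with one another or with Fos proteins, whereas Fos proteins need a Jun partner to bind DNA. Many of these genes are immediate early genes, which are transcribed within minutes of a growth factor, stress or injury signal through MAP kinases acting on SRF, its ternary complex factors and CREB, without new protein synthesis. Their transcripts are short-lived, and in kidney they are known to be induced by injury and by the isolation of cells from tissue.

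Fosb, Fos and Dusp1 had the highest values relative to KM among these genes, with means 23.2, 3.86 and 2.68 times as high in KMS cells. Each was higher in both KMS libraries than in either KM library, as 29% of all genes tested were. Fosl2 and Fosl1 were lower in both KMS libraries than in either KM library, as 31.3% of all genes tested were. For Fosl2 replicate 1 of KMS was close to replicate 1 of KM, and Fosl1 had 3 counts in KM replicate 1. Jun, Junb, Jund, Egr1 and Atf3 overlapped between the genotypes. None of the 9 genes with enough counts for the test passed it with genotype as the only term. Fosb and Dusp1 rose in KMS in a model with a term for sex, which was read from the counts. Most of the 10 genes were higher in replicate 1 of KMS but in replicate 2 of KM. A sex term common to both genotypes does not describe that order.

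The libraries held 9780050 and 8886496 counts in KMS and 18639040 and 14955148 in KM. Setd2, the gene targeted in KMS, had 564 and 405 counts in KMS and 1006 and 949 in KM, or 58.3 and 49.2 CPM in KMS and 54.3 and 58.1 CPM in KM, where CPM is the count after TMM scaling to a library of 1e+06. The labels do not give the deleted exons, so the count over the whole gene does not check the genotype labels. Replicate 1 of each genotype was rich in the female transcript Xist, with 4363 counts in KMS and 12967 in KM, and replicate 2 had 1 such count in KMS and 10 in KM. Over 4 Y-linked genes, replicate 2 had 1471 counts in KMS and 3410 in KM, and replicate 1 had 0 in KMS and 1 in KM. The female and male libraries of each genotype are therefore its replicates 1 and 2, a reading from the counts and not from the labels, so the replicates of a genotype came from different animals and also differ in sex. Summed over 6 markers, the proximal tubule had 12023 and 10514 CPM in KMS and 6060 and 4412 CPM in KM, so the labelled cell type was present in every library. Some other markers moved with the genotype too. The sum of 7 leukocyte markers was 221 and 130 CPM in KMS and 286 and 498 CPM in KM, that of 6 fibroblast and matrix markers 86.3 and 77.6 CPM in KMS and 137 and 184 CPM in KM, and that of 5 urothelial markers 1.24 and 2.19 CPM in KMS and 8.37 and 74.3 CPM in KM, with Krt5 at 0 in KMS. None of the leukocyte or fibroblast markers was at 0 in both KMS libraries, but the fibroblast marker Lum had 1 and 0 counts in KMS and 15 and 10 in KM. Sums were higher in KMS for 5 markers of the thick ascending limb and distal tubule, at 5922 and 3533 CPM in KMS and 3355 and 857 CPM in KM, and for 5 podocyte markers, at 2218 and 2060 CPM in KMS and 1896 and 920 CPM in KM. Sums overlapped between the genotypes for 6 endothelial markers, at 1044 and 597 CPM in KMS and 967 and 815 CPM in KM, and for 5 collecting duct markers, at 273 and 178 CPM in KMS and 362 and 233 CPM in KM. The collecting duct sum joins markers that differed in opposite directions. Aqp2 and Scnn1g were higher, and Atp6v1g3 and Atp6v0d2 lower, in both KMS libraries than in either KM library. With a term for sex, 2 of these markers were called higher and 2 lower. The part of these cells in the results below was not tested, and in bulk RNA fewer cells of a type cannot be told apart from less RNA per cell.

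The start regions of the 3 genes with the higher values in KMS, and that of Fosl2 with lower values, are shown because the binding site of CREB is one route by which signals reach immediate early genes. The 250 bases before the RefSeq start site (GRCm38.p6) are printed in the direction of transcription, with capitals for each TGACG, the half-site of the cyclic AMP response element, or for TGACGTCA, its full form, on either strand.
Fos (chr12:85473640-85473889, plus strand): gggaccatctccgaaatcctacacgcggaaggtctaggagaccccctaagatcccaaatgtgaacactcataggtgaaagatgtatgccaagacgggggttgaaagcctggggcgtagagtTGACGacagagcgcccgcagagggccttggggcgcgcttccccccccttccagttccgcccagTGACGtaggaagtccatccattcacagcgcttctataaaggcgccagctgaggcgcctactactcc
Fosb (chr7:19310046-19310295, minus strand): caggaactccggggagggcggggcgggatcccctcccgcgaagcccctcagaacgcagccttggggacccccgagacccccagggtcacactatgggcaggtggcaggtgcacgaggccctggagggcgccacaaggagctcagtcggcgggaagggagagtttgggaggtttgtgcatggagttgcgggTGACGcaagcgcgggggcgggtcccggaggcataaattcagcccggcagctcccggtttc
Dusp1 (chr17:26508473-26508722, minus strand): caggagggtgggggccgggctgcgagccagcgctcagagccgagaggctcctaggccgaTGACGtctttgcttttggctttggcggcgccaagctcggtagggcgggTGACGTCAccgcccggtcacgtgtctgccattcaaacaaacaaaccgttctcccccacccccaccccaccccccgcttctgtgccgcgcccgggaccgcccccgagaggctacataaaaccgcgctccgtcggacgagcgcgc
Fosl2 (chr5:32136222-32136471, plus strand): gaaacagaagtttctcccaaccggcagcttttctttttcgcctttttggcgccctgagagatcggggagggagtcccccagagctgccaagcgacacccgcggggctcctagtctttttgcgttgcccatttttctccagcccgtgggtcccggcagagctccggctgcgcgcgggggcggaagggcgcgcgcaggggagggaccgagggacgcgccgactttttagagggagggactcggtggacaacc

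Promoter entries were available for 8 of the 10 genes, and Fosl1 and Egr1 were not among them. TGACG was found in 5 of the 8, in Fos at positions -129 and -66, in Fosb at -60, in Junb at -106, in Atf3 at -7 on the opposite strand and in Dusp1 at -191 and within the full TGACGTCA starting at -143. Among 32851 mouse promoters of the same 250 bases, 17.8% held TGACG and 1.55% held TGACGTCA, with full sites counted among the half-sites. Within these 250 bases the AP-1 site TGANTCA and the CArG box, the SRF site, were in 0 of the 8. The shares over all these promoters were 6.75% and 1.47%. Bases farther from the start site were not searched, so these counts do not show that the genes lack such sites. Fos, Fosb and Dusp1 thus share TGACG with Junb and Atf3, whose values overlapped between the genotypes. In these bases Fosl2 has none, and neither do Jun and Jund, whose values overlapped too. The windows of Fosl2 and Dusp1 lie inside the gene spans given below, so the bases before those spans were not searched. A match is a run of letters and does not show binding.

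Fosb (chromosome 7, 19302696 to 19310051, GRCm38, 4 exons) encodes a Fos protein with a strong activation domain that is scarce in resting cells. It had 265 and 73 counts in KMS and 12 and 15 counts in KM, which are 27.4 and 8.87 CPM in KMS and 0.648 and 0.918 CPM in KM. Both KMS libraries stood clear of both KM libraries, although the KMS libraries differed from each other 3.09-fold. The mean was 18.1 ± 13.1 CPM in KMS and 0.783 ± 0.19 CPM in KM (SD, n = 2 each). The 4 ratios of a KMS to a KM library ran from 9.65 (95% interval 5.49 to 18.1, exact, counting error only) to 42.3 (23.8 to 82.9). The log2 fold change was 4.53 ± 0.64 (SE), the 7th highest of 15002 genes tested, with an edgeR adjusted p of 0.066 for genotype alone. With the term for sex it was 4.35 ± 0.55 and Fosb rose (edgeR adjusted p = 0.0104). The log2 ratio of KMS to KM was 4.60 between the female libraries and 2.72 between the male libraries.

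Fos (chromosome 12, 85473890 to 85477273, 4 exons), the prototype of the family and of immediate early genes, had 856 and 270 counts in KMS and 212 and 326 counts in KM. These are 88.5 and 32.8 CPM in KMS and 11.4 and 19.96 CPM in KM. KMS replicate 1 stood highest, and the lower KMS library was 1.64 times the higher KM library (95% interval 1.39 to 1.94, counting error only). The mean was 60.7 ± 39.4 CPM in KMS and 15.7 ± 6.02 CPM in KM (SD, n = 2 each), with a log2 fold change of 1.95 ± 0.51 (SE) at an edgeR adjusted p of 0.101. It did not pass with the term for sex (1.84 ± 0.47, edgeR adjusted p = 0.063), and the log2 ratio was 2.90 between the female and 0.70 between the male libraries. Without KMS replicate 1 the log2 fold change was 1.10, and without KMS replicate 2 it was 2.52.

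Fosl2 (chromosome 5, 32135801 to 32157842) encodes Fra-2, a Fos-related protein that lacks the activation domain of Fos and accumulates later and for longer after a stimulus. It had 252 and 147 counts in KMS and 500 and 1213 counts in KM, or 26.1 and 17.9 CPM in KMS and 27.0 and 74.3 CPM in KM. KM replicate 2 stood apart from the other 3 libraries, and KMS replicate 1 was close to KM replicate 1, at a ratio of 0.966 (95% interval 0.827 to 1.13, counting error only). The mean was 22.0 ± 5.80 CPM in KMS and 50.6 ± 33.4 CPM in KM (SD, n = 2 each). Its difference of -1.20 ± 0.48 (log2, SE) did not pass (edgeR adjusted p = 0.182), and it was -0.29 without KM replicate 2. Between the female libraries the log2 ratio was -0.05, and between the male libraries it was -2.03.

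Fosl1 (chromosome 19, 5447547 to 5455946) encodes Fra-1, the Fos-related protein of migrating and transformed epithelial cells. It had 0 and 0 counts in KMS and 3 and 12 counts in KM, and fell under the filter on low counts. Pooled over each genotype, KM had 0.430 CPM, 2.57 times the limit that a count of 0 allows in KMS. That limit was taken as 3 counts over both KMS libraries (0.168 CPM), and counting error in KM was left out. KM replicate 2 had 0.735 CPM, but KM replicate 1 had 0.162 CPM, so no fall is shown against replicate 1. Without the filter the edgeR adjusted p of Fosl1 was 0.200 over 18383 genes. Of its transcript, 1163 bases lie opposite the gene Ccdc85b on the other strand, and the use of strand in counting is a point not given in the sources used here.

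**Figure D1:**
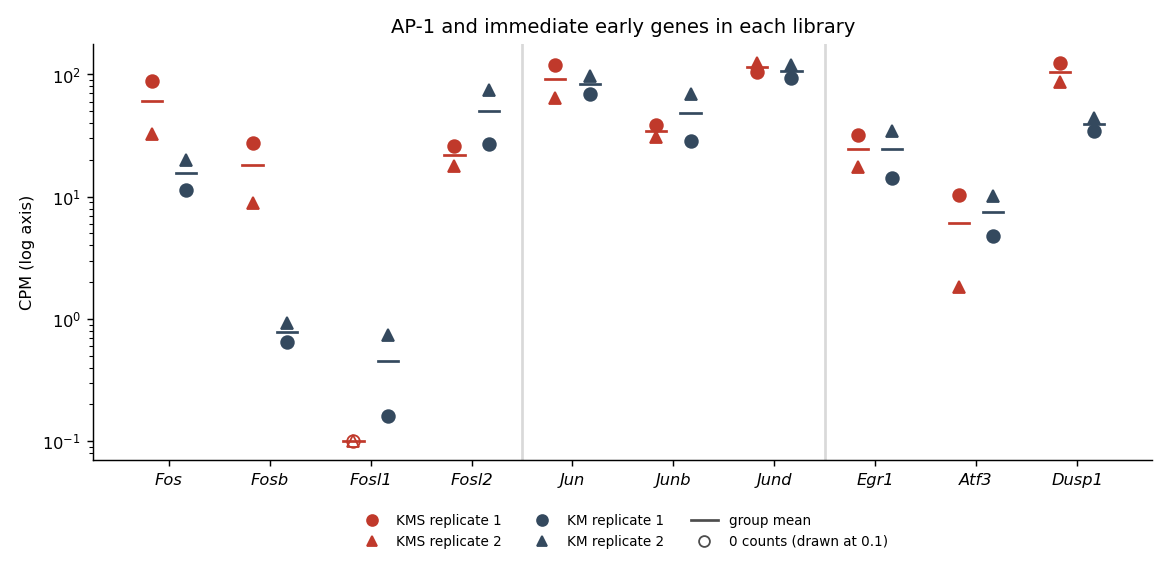
CPM (logarithmic axis) of the 10 genes in each library, KMS in red to the left of KM in dark blue, circles for replicate 1, triangles for replicate 2, bars for the group mean, and open symbols for 0 counts drawn at 0.1. Fos, Fosb and Dusp1 lie higher and Fosl1 and Fosl2 lower in both KMS libraries than in both KM libraries, and the other 5 genes overlap.

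The shares of Fos, Fosb and Fosl2 in the Fos family did not overlap between the KMS and the KM libraries. Per kilobase of the principal transcript, Fos gave 78.9% and 75.4% of the summed level of the 4 genes in the KMS libraries and 55.3% and 44.1% in the KM libraries. Fosb gave 13.6% and 11.4% in KMS and 1.74% and 1.13% in KM. Fosl2 gave 7.49% and 13.2% in KMS and 42.1% and 52.9% in KM. The replicates of each genotype resembled each other in these shares although their summed level did not, at 53.2 and 20.6 CPM per kilobase in KMS and 9.82 and 21.5 in KM, so that KMS replicate 2 and KM replicate 2 had about the same total with different members. Ratios of raw counts within a library need no scaling between libraries. The ratio of Fosb to Fos counts was 0.310 and 0.270 in KMS and 0.0566 and 0.0460 in KM, and that of Fos to Fosl2 counts was 3.40 and 1.84 in KMS and 0.424 and 0.269 in KM. Neither ratio overlapped between the genotypes. For Fos to Fosl2 that had to be so, as Fos was higher and Fosl2 lower in both KMS libraries. The joint share of Fosl1 and Fosl2 likewise had to be lower in KMS, as both were lower there and Fos and Fosb higher. The shares rest on the same counts, and no such ratios or shares of other genes were drawn up beside them. A permutation of 2 against 2 libraries cannot give a two-sided p under 0.333.

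**Figure D2:**
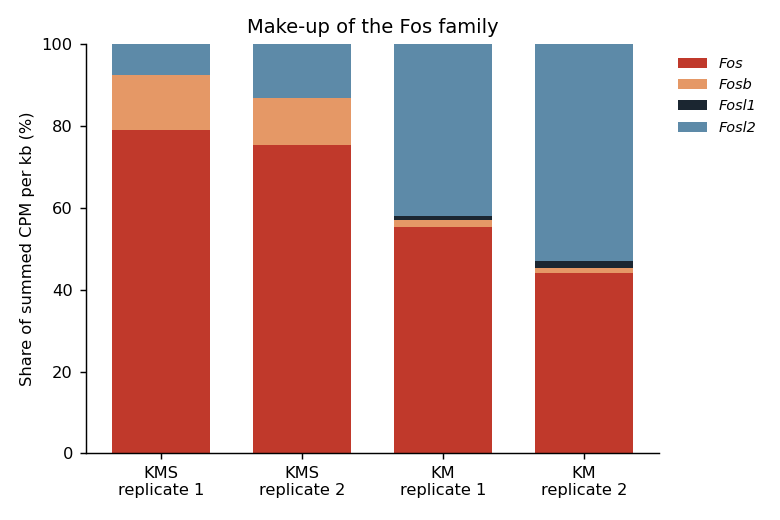
Share of each Fos family gene in the summed CPM per kilobase of the 4 genes (percent, stacked), by library, with the KMS libraries left of the KM libraries. Fosl2 makes up 7.49% and 13.2% in KMS and 42.1% and 52.9% in KM, and Fosb 13.6% and 11.4% in KMS and 1.74% and 1.13% in KM.

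The Jun genes, whose products are the partners that every Fos protein needs, did not separate the genotypes. Jund (chromosome 8, 70698949 to 70700616), the Jun protein of resting cells, had 104 and 124 CPM in KMS and 93.1 and 121 CPM in KM, with a log2 fold change of 0.10 ± 0.21 (SE, edgeR adjusted p = 0.809). Jun (chromosome 4, 95049034 to 95052222), the main target of the JNK kinases, had 121 and 63.8 CPM in KMS and 69.5 and 97.0 CPM in KM, with a log2 fold change of 0.15 ± 0.34 (edgeR adjusted p = 0.812). Junb (chromosome 8, 84974484 to 84978718), which often opposes Jun at shared sites, had 38.8 and 30.6 CPM in KMS and 28.7 and 68.7 CPM in KM (log2 fold change -0.49 ± 0.41, edgeR adjusted p = 0.482). For Jun the libraries of each genotype differed by more than the genotypes did, and for Junb those of KM did. Antisense genes lie opposite 689 bases of the Jun and 919 bases of the Jund transcript, and reads of both strands cannot be told apart unless counting used strand. Jund gave 51.3% and 66.8% of the summed level of the 3 Jun genes per kilobase in KMS and 59.7% and 51.4% in KM, so the make-up of this family overlapped between the genotypes.

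Dusp1 (chromosome 17, 26505590 to 26562128, with 4 exons in its principal transcript) encodes a nuclear phosphatase that removes the activating phosphates from p38 and JNK and so limits the signals that induce the other genes. It had 1203 and 711 counts in KMS and 643 and 717 counts in KM, or 124 and 86.4 CPM in KMS and 34.7 and 43.9 CPM in KM. Both KMS libraries were above both KM libraries, and the 4 ratios of a KMS to a KM library lay between 1.97 and 3.58. The mean was 105 ± 26.9 CPM in KMS and 39.3 ± 6.498 CPM in KM (SD, n = 2 each). The log2 fold change of 1.42 ± 0.24 (SE) missed the threshold for genotype alone (edgeR adjusted p = 0.075) and passed with the term for sex, where Dusp1 rose by 1.41 ± 0.26 (edgeR adjusted p = 0.0272). The log2 ratio was 1.83 between the female and 0.97 between the male libraries. In the authors' deposited table Dusp1 was the only one of the 10 with an adjusted p under 0.05, at 0.0196, where 2.22% of all rows had one, and Fosb had an adjusted p of 0.186 there.

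Egr1, a zinc finger transcription factor induced through SRF together with Fos, had 32.1 and 17.4 CPM in KMS and 14.2 and 34.6 CPM in KM. Between the genotypes it differed by 0.02 ± 0.48 (log2, SE), at an edgeR adjusted p of 0.981. Atf3 (chromosome 1, 191170296 to 191218039), a stress-induced zipper protein that represses many of its targets, had 10.3 and 1.82 CPM in KMS and 4.80 and 10.1 CPM in KM, with a log2 fold change of -0.28 ± 0.76 (edgeR adjusted p = 0.846). Both genes were high in KMS replicate 1 and KM replicate 2 and low in the other library of each genotype. The ratio of KMS replicate 1 to KMS replicate 2 was 5.68 for Atf3 and 1.85 for Egr1, and the ratio of KM replicate 2 to KM replicate 1 was 2.103 for Atf3 and 2.44 for Egr1.

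That order of the libraries held for most of the 10 genes. In KMS, replicate 1 was above replicate 2 for 8 of them, with Jund the other way round and Fosl1 at 0 in both, and in KM replicate 2 was above replicate 1 for all 10. For the 9279 genes with a mean of at least 10 CPM, the replicates differed by a median of 1.18-fold in KMS and 1.16-fold in KM. The gap for Fos was larger than that of 98.7% of these genes in KMS and 93.2% in KM, for Egr1 the shares were 94.7% in KMS and 97.2% in KM, and for Fosl2 83.7% in KMS and 97.9% in KM. For Jun they were 95.3% in KMS and 82.5% in KM, for Junb 66.2% in KMS and 97.2% in KM, for Dusp1 83.3% in KMS and 69.5% in KM, and for Jund 53.3% in KMS and 73.6% in KM.

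With genotype as the only term, 0 of the 9 genes tested passed at an edgeR adjusted p under 0.05, and 5 of all 15002 genes tested did, or 0.0333%. An unadjusted edgeR p under 0.05 was reached by 4 of the 9, Fos, Fosb and Dusp1 with higher and Fosl2 with lower values in KMS, beside 26.3% of all genes tested, 12.2% with KMS higher and 14.1% with KMS lower. Levels did not overlap between the genotypes for 3 of the 9 with KMS higher, where 29% of all genes tested had this, and for 1 of the 9 with KMS lower, where 31.3% did. In either direction that is 4 of the 9, against 60.3% of all genes tested. With the term for sex, 2 of the 9 passed, both higher in KMS, against 5.43% of all genes tested and 1.93% in that direction. The DESeq2 test with genotype alone called 3, Fosb, Fos and Dusp1, beside 11.8% of all genes tested, and limma-voom called 0. Without KM replicate 1 the edgeR count was 4, Fosb and Dusp1 higher and Fosl2 and Junb lower, beside 11.5% of all genes tested. It was 1, Fosb, without KM replicate 2, beside 1.14% of all genes, and 0 without either KMS replicate. In these fits 1 genotype has a single library, which is assumed to vary like the libraries of the other genotype. The median log2 fold change of the 9 was 0.10, against -0.01 over all genes tested, and 6 of the 9 were positive. Between the female libraries 8 of the 9 were positive, with a median log2 ratio of 1.03, and between the male libraries 4 of the 9, with a median of -0.60, beside 7416 and 7341 of all 15002 genes.

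**Figure D3:**
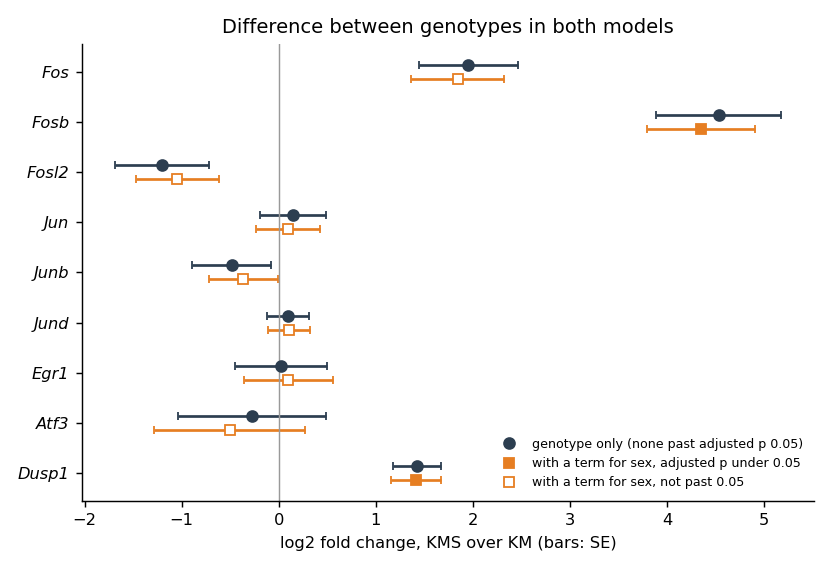
Log2 fold change of KMS over KM for the 9 genes tested, with bars of 1 SE, in the edgeR model with genotype alone (dark circles) and with a term for sex (orange squares, filled where the adjusted p was under 0.05). Fosb lies at 4.53 and 4.35, Dusp1 at 1.42 and 1.41 and Fos at 1.95 and 1.84, and the filled squares are Fosb and Dusp1.

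Per kilobase of the principal transcript, Jund was the most abundant of the 10 in both genotypes, with a mean of 68.4 ± 8.47 CPM per kilobase in KMS and 64.1 ± 11.7 in KM (SD, n = 2 each). In KMS the order after Jund was Dusp1 (53.0 ± 13.5), Jun (28.9 ± 12.6), Fos (28.8 ± 18.7), Junb (19.2 ± 3.20), Egr1 (5.51 ± 2.32), Fosb (4.80 ± 3.47), Fosl2 (3.36 ± 0.89), Atf3 (3.07 ± 3.04) and Fosl1 at 0. In KM it was Junb (26.9 ± 15.6), Jun (26.1 ± 6.10), Dusp1 (19.8 ± 3.27), Fosl2 (7.75 ± 5.11), Fos (7.45 ± 2.86), Egr1 (5.44 ± 3.22), Atf3 (3.76 ± 1.89), Fosl1 (0.240 ± 0.22) and Fosb (0.207 ± 0.05). In KMS the libraries left gaps between Dusp1 and Jun and between Junb and Egr1, and neighbours within the stretches so formed overlapped, as Jund did with Dusp1, except that Fosl1 at 0 lay below Atf3. In KM the gaps lay after Jund, after Dusp1 and after Atf3, and the neighbours between them overlapped. Fosb stood 7th in KMS and last of the 10 in KM, and Fos stood 4th in KMS and 6th in KM. Part of this order depends on the length used. With the joined length of all exons of a gene, Fos stood 5th and Fosl2 7th in KM, and Jun stood above Junb there. In KMS, Atf3 then stood above Fosl2.

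Genes around AP-1 were taken from 6 textbook lists holding 115 other genes with a row, of which 112 were tested. None passed the edgeR test for genotype alone. An unadjusted edgeR p under 0.05 was reached by 31, 6 with higher and 25 with lower values in KMS. Of all genes tested 26.3% reached it, 12.2% with KMS higher and 14.1% with KMS lower. With genotype alone limma-voom called 0 and DESeq2 called 18, where DESeq2 called 11.8% of all genes tested. With the term for sex 7 passed, all lower in KMS, where 3.5% of all genes tested were called in that direction.

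Among other immediate early genes, lower values in KMS came mainly from the male libraries. Between the female libraries 13 of 26 were positive and 13 negative, with a median log2 ratio of -0.01, while between the male libraries 23 of 26 were negative, with a median of -0.98. Over both, 14 of the 26 overlapped between the genotypes, beside 5955 of all 15002 genes tested. In the fit, 22 of the 26 were negative with a median log2 fold change of -0.49, against 7608 negative of 15002 and a median of -0.01 over all genes tested. With the term for sex 2 fell, beside 3.5% of all genes tested called in that direction. Zfp36l1, which binds AU-rich elements and speeds the decay of short-lived transcripts, had 77.2 and 71.9 CPM in KMS and 158 and 180 CPM in KM and fell by 1.18 on the log2 scale (SE 0.23, edgeR adjusted p = 0.031 with the term for sex). Klf4, a factor of epithelial differentiation, had 14.3 and 14.2 CPM in KMS and 25.6 and 38.3 CPM in KM and fell by 1.14 (SE 0.25, edgeR adjusted p = 0.0427 with that term). Trib1 had 13.0 and 9.47 CPM in KMS and 19.97 and 24.9 CPM in KM, and Ier5 had 17.1 and 16.2 CPM in KMS and 25.4 and 32.2 CPM in KM, and neither passed. The 4 positive genes, chosen after their values were seen, were Arc, Zfp36, Ppp1r15a and Sgk1, with log2 fold changes of 0.91, 0.33, 0.26 and 0.14 and none past the test.

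Genes known as AP-1 targets were lower in KMS for 14 of 19, with a median log2 fold change of -1.25. Of all 15002 genes tested 7608 were negative, with a median of -0.01. With the term for sex 3 targets fell, beside 3.5% of all genes tested called in that direction. Between the female libraries 13 of the 19 were negative, with a median log2 ratio of -0.47, and between the male libraries 15 of the 19, with a median of -1.65. Cd44, the hyaluronan receptor, had 7.24 and 5.34 CPM in KMS and 20.3 and 61.4 CPM in KM and fell by 2.48 on the log2 scale (SE 0.45, edgeR adjusted p = 0.0258 with that term). Timp1, an inhibitor of metalloproteinases also among those calls and named for that reason after its values were seen, had 4 and 0 counts in KMS and 41 and 165 in KM (edgeR adjusted p = 0.0444 with that term). The membrane metalloproteinase gene Mmp14 had 10.2 and 9.47 CPM in KMS and 17.8 and 29.3 CPM in KM, and the chemokine gene Ccl2 had 1.03 and 0.607 CPM in KMS and 2.75 and 5.94 CPM in KM, and neither passed. Cd44, Timp1, Mmp14 and Ccl2 were all lower in both KMS libraries, and KM replicate 2 was the highest library for each, as it was for the urothelial and leukocyte markers. The 5 positive targets, chosen after their values were seen, were Vegfa, Hbegf, Ccnd1, Plau and Ezr. Their log2 fold changes were 0.40, 0.35, 0.32, 0.30 and 0.04, and none passed in either model. Vegfa and Ccnd1 were higher in both KMS libraries than in either KM library.

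**Figure D4:**
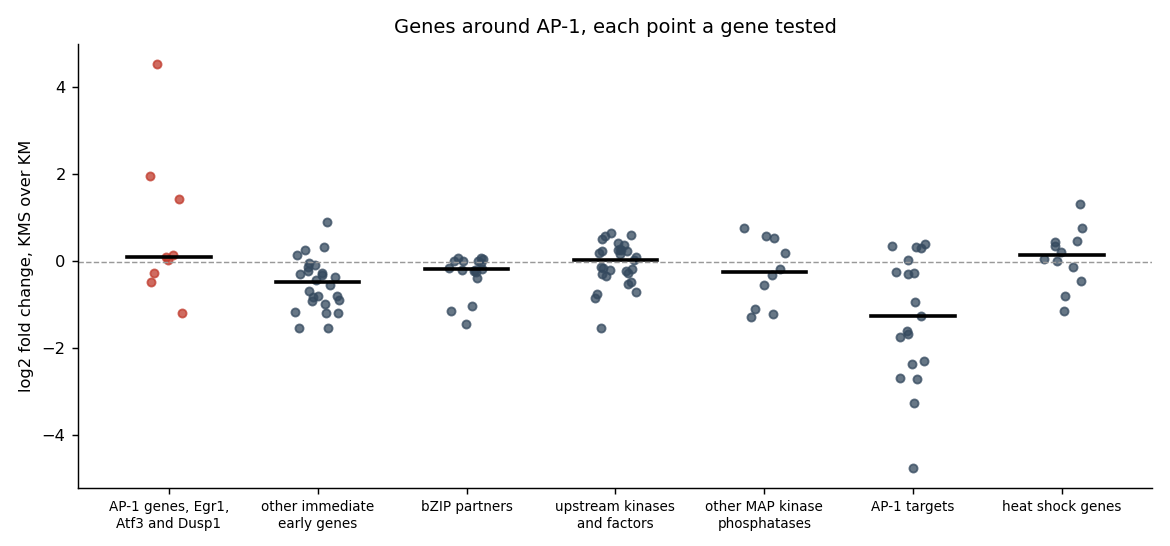
Log2 fold change of KMS over KM (edgeR, genotype alone) for the 9 tested genes of the set (red) and for the tested genes of 6 lists around AP-1 (dark blue), one point a gene, with the list median as a black bar and the median of all genes tested as a dashed line. The other immediate early genes have a median of -0.49 and the AP-1 targets one of -1.25, while Fosb, Fos and Dusp1 lie at 4.53, 1.95 and 1.42.

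The kinases and factors upstream of AP-1 were balanced, with 15 positive and 14 negative genes and a median log2 fold change of 0.03. Map3k1, a kinase that feeds the JNK pathway, was the call of this list and fell with the term for sex, with 31.3 and 28.4 CPM in KMS and 66.3 and 107 CPM in KM (log2 fold change -1.50 ± 0.25, SE, edgeR adjusted p = 0.0209). In the ERK pathway, Map2k2 had 107 and 110 CPM in KMS and 67.0 and 71.0 CPM in KM and did not pass. Elk3, a ternary complex factor that can repress Fos, had 31.1 and 20.8 CPM in KMS and 40.7 and 43.7 CPM in KM and did not pass. Among 17 zipper proteins that pair with or resemble AP-1, 12 were negative with a median of -0.18. Cebpb, a zipper factor of inflammation, fell with the term for sex, with 13.4 and 15.8 CPM in KMS and 24.0 and 55.8 CPM in KM (log2 fold change -1.33 ± 0.28, SE, edgeR adjusted p = 0.0395). Of the same list, Cebpd had 8.90 and 3.04 CPM in KMS and 10.5 and 16.3 CPM in KM, Batf 0.517 and 0.364 CPM in KMS and 0.972 and 0.857 CPM in KM, and Creb1 37.9 and 39.1 CPM in KMS and 43.5 and 45.6 CPM in KM.

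Of 10 other MAP kinase phosphatases tested, 4 were positive and 6 negative, with a median log2 fold change of -0.25 and none past the test in either model. Dusp8 had 5.17 and 2.92 CPM in KMS and 8.37 and 11.3 CPM in KM, and Dusp14 had 13.0 and 17.01 CPM in KMS and 8.91 and 8.88 CPM in KM. Heat shock genes, which like Fos and Jun are raised when tissue is dissociated, gave 8 positive and 4 negative of 12 with a median of 0.13 and no call in either model. Their summed level was 2831 and 2472 CPM in KMS and 3084 and 3100 CPM in KM. The inducible genes Hspa1a and Hspa1b, named after their values were seen, were a small part of that sum. Both were highest in KMS replicate 1, where Fos and Fosb were highest too. Atf3 was about as high in KM replicate 2 (10.1 CPM) as in KMS replicate 1 (10.3 CPM). Hspb1 of the same list, also named after its values were seen, was highest in KM replicate 2 (32.9 CPM). Hspa1a had 32.2 and 6.20 CPM in KMS and 5.99 and 9.55 CPM in KM, with a log2 ratio of 2.33 between the female and -0.59 between the male libraries. Hspa1b had 27.4 and 6.80 CPM in KMS and 11.4 and 22.8 CPM in KM. The part of tissue dissociation in the levels of Fos and Fosb was not tested. Dnajb1, a co-chaperone, had 45.6 and 37.7 CPM in KMS and 24.7 and 24.8 CPM in KM, and the chaperone gene Hsp90ab1 had 905 and 747 CPM in KMS and 1382 and 1475 CPM in KM.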

How the data were processed

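Poly(A)-selected RNA was sequenced as read pairs with a directional kit, per the labels' protocols. Raw read counts per gene, the log2 fold change (set to 20 or -20 where a group is at 0) and the p-value and adjusted p-value are columns of the authors' deposited table. HISAT2, StringTie, cutadapt 1.9.1, MACS2 2.1.1, Trimmomatic 0.35, FastQC and GRCm38 (mm10) appear without roles, per the submitters' processing notes. The counting program, its use of strand and the test behind the deposited p-values were points not given in the sources used here.

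Members, lists, tests and alternatives were chosen with earlier results of these data known. Counts of all 18383 genes were fitted with edgeR 4.0.16 (R 4.3.3), the quasi-likelihood F test, TMM factors and genotype alone, after filterByExpr (minimum count 10, minimum total 15) left 15002 genes. Calls had a Benjamini-Hochberg adjusted p under 0.05. The SE of a log2 fold change comes from the F statistic. CPM is the count over the TMM-adjusted total times 1e+06, and 0.5 CPM was added for log2 ratios between the female or male libraries. The term for sex was read from Xist and Y-linked counts and equals the replicate number. With an intercept, sex and genotype fitted to 4 libraries, little is left to estimate the spread between replicates. The fit was checked on simulated counts. Other settings used DESeq2 1.42.0 and limma 3.58.1. Positions and lengths are from GENCODE M21. All 10 genes are named, and from each list up to 4 genes of smallest p where it holds a call in either model, otherwise up to 2, and 2 genes that this rule takes are not reported here. Of the listed genes, 10 had no row. Intervals and the floor of 3 counts cover counting error only.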

Additional observations from a re-analysis of the deposited data

Results flagged for a closer look

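The log2 ratio of KMS to KM was positive between the female libraries and negative between the male libraries for Jun (0.79 and -0.60), Junb (0.43 and -1.15), Egr1 (1.15 and -0.97) and Atf3 (1.03 and -2.19). The ratio between the female libraries thus exceeded that between the male libraries by 1.39 for Jun, 1.58 for Junb, 2.12 for Egr1 and 3.22 for Atf3, on the log2 scale. With 1 library for each sex and genotype the difference was not tested. Of all 15002 genes tested, 28% had ratios of opposite sign in the same libraries, and of these 9 genes 4 did.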

How the results depend on the processing

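With genotype alone 5 genes, 0 of the 9 tested here and 0 of the genes around them were called. The replicate block, which equals the term for sex, gave 815, 2 and 7, and DESeq2 gave 1767, 3 and 18. Library totals gave 3 genes and limma-voom 1. Leaving out a library gave 0 to 1786 genes, 0 to 4 of the 9 and 0 to 17 around them, with 0 genes without KMS replicate 1 or without KMS replicate 2, 1786 without KM replicate 1 and 169 without KM replicate 2. The labels do not pair the replicates, whose deviations correlated across genes at 0.0657 between the genotypes, and with a library left out the replicate block leaves no residual degrees of freedom. Fosb, Fos and Dusp1 stayed positive and Fosl2 negative under all 11 alternatives, with Fosb from 3.53 to 5.14 and Dusp1 from 1.17 to 1.68 (log2). Their levels do not overlap between the genotypes, so leaving out a library could hardly turn the sign. The remaining alternatives refit the same libraries. For the other genes tested here the sign rested on the setting, and the cause was not tested. Egr1 was -0.035 with upper-quartile factors and -0.12 with library totals, and Jund -0.042 with library totals. Leaving out a library gave -0.35 to 0.55 for Jun, -0.97 to 0.28 for Junb, -0.068 to 0.30 for Jund, -0.47 to 0.80 for Egr1, -1.99 to 0.49 for Atf3 and -0.35 to 0.49 for the median of the 9. Library totals moved the median of all genes tested to -0.13. With 2 libraries a genotype, a difference that these fits do not call is not shown to be absent.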
